A study of Mus musculus with 8 samples.

Results

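Msx1, Msx2, Foxn1, Dlx3, Gata3, Cux1 and Foxq1 are transcription factors of the hair matrix and of the cell lineages that leave it. They were chosen by name, each as the row of the deposited table that carries its gene symbol, and all 7 were found among its 18770 genes. All 7 also passed the filter on low values, which asked for 3 or more normalized counts in 4 or more of the 8 libraries and kept 15964 genes.

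The samples were back skin of wildtype C57BL/6 mice (male C57BL/6J in the methods) on D4 after depilation, which sets the hair follicles of a skin area into a new growth cycle at about the same time. The AP group (4 libraries, AP.1 to AP.4) received alpinetin, a plant flavonoid, as 20 µl of a 3 mg/ml solution in 65% ethanol, applied to the skin once a day from 24 h after depilation. The VC group (vehicle control, 4 libraries, VC.1 to VC.4) received 20 µl of 65% ethanol in the same way. Interfollicular epidermal keratinocytes were removed and RNA was taken from the dermis with its hair follicles. The labels give an age of 7 to 8 weeks for both groups and the methods 6 to 7 weeks at depilation. The numbered columns of the table could be assigned to the groups but not to individual mice, and the numbers do not pair a VC library with an AP library. The comparison of the AP group with the VC group asks how the levels of these factors differed early in the new hair cycle when alpinetin was given.

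Libraries of the AP group were deeper. The VC libraries held 6454563 to 7264151 reads counted in genes and the AP libraries 8507783 to 11190113. The 13 protein-coding genes of the mitochondrial genome took 48.4% ± 5.81 (SD, n = 4) of VC reads but 8.66% ± 2.63 (SD, n = 4) of AP reads, and the groups did not overlap (two-sided exact permutation test over 70 assignments of 4 libraries against 4, p = 0.0286, the smallest that this design can give). Without these genes 3080758 to 3762217 reads were left per VC library and 7561598 to 10594787 per AP library. A gene with no read could therefore have had up to 4.10 to 5.63 normalized counts in a VC library and 1.49 to 2.18 in an AP library (3 reads), a limit that covers counting error only. Normalized counts are the authors' read counts divided by 1 size factor per library. With reads without mitochondrial genes drawn down to equal depth, and with scaling to total counts without these genes, 0 of 7 members passed the test below and Foxn1 and Foxq1 had an unadjusted p under 0.05, as without these steps.

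The hair matrix is a ring of dividing epithelial cells around the dermal papilla, a cluster of dermal cells at the base of the growing follicle. Matrix cells leave the cycle, move upward and differentiate into the cortex, cuticle and medulla of the hair shaft and into the layers of the inner root sheath that guides it. Wnt, BMP and Shh signals reach these cells, and transcription factors such as the 7 described here are needed for the hair keratins, sheath proteins or shaft structure of individual layers.

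Foxn1 and Foxq1 had higher mean levels in the AP group, Msx1 and Msx2 had lower ones except when libraries were scaled to their total counts, and no member passed the test. By limma's moderated test across all genes with Benjamini-Hochberg adjustment, 0 of 7 members were higher in the AP group at an adjusted p under 0.05, beside 6.33% of all genes tested, and 0 of 7 were lower, beside 4.003% of all genes. At an unadjusted p under 0.05, 2 of 7 (Foxn1 and Foxq1) were higher, beside 17.04% of all genes, and 0 of 7 were lower, beside 13.3%. Foxn1 was above that threshold with edgeR, without the intensity trend and without VC.2 or AP.2, and Foxn1 and Foxq1 both were without VC.4, AP.3 or AP.4. Counts at an adjusted p under 0.05 were also 0 of 7 with edgeR, with DESeq2 and with limma-voom. By the thresholds of the study's methods (fold change over 1.5 and unadjusted p under 0.01), applied here to limma's values, 0 of 7 were higher, beside 8.26%, and 0 of 7 were lower, beside 5.32%. The AP and VC libraries overlapped for every member, whereas they did not overlap for 19.2% of all genes. Scaling to total counts moved the median of all genes from 0.06 to 0.90 (log2 fold change), and with it Foxn1, Cux1 and Foxq1 passed the threshold (3 of 7, beside 54.2% of all genes higher with that scaling). When mitochondrial genes were left out of the totals, the median of all genes was 0.10. Then 0 of 7 members passed, beside 5.99% of all genes higher.

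Msx1 and Msx2 are homeodomain proteins that act mainly as repressors, and Msx2 lies upstream of Foxn1 in the hair matrix. Msx1 (ENSMUSG00000048450, mm10 chr5:37820485-37824583, minus strand) was read at 347, 173, 391 and 122 normalized counts in VC.1 to VC.4, against 122, 201, 247 and 99.4 in AP.1 to AP.4. VC.1 and VC.3 lay above every AP library, and VC.2 and VC.4 lay within the AP range. Its mean was 258 ± 131 (SD, n = 4) for VC and 167 ± 68.8 for AP, a log2 fold change of −0.56 (SE 0.40, limma adjusted p = 0.365) that was −0.87 to −0.31 when a library was left out and turned to 0.31 with scaling to total counts. Msx2 (ENSMUSG00000021469, chr13:53466884-53473074, minus strand) was read at 467, 186, 354 and 86.3 normalized counts in the VC libraries against 92.1, 192, 223 and 113 in the AP libraries. The same VC libraries, VC.1 and VC.3, lay above every AP library, and VC.4 lay below all of them. Means were 273 ± 170 for VC and 155 ± 62.7 for AP (SD, n = 4), and the log2 fold change was −0.64 (SE 0.47, limma adjusted p = 0.387), which turned to 0.23 with scaling to total counts. The log2 fold change of Msx2 was −0.29 without VC.1 and −1.10 without VC.4. Without VC.4 limma's unadjusted p was under 0.05 for Msx1, Msx2 and Dlx3, but no adjusted p was. The share of all genes at that unadjusted p without VC.4 was not counted, so nothing is read from these members.

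Dlx3, a homeodomain factor downstream of Wnt signals that is needed for hair shaft and sheath differentiation, had a similar pattern over the libraries. Its normalized counts were 1064, 671, 1213 and 204 in VC.1 to VC.4, against 305, 745, 844 and 370 in AP.1 to AP.4 (ENSMUSG00000001510, chr11:95120119-95125296, plus strand). VC.1 and VC.3 were again above all AP libraries and VC.4 below them. The log2 fold change was −0.33 (SE 0.51, limma adjusted p = 0.699), −0.88 without VC.4, −0.029 without VC.3 and 0.54 with scaling to total counts. The spread among VC libraries was wide for these genes: the highest VC library held 3.20 times the normalized counts of the lowest for Msx1, 5.42 times for Msx2 and 5.93 times for Dlx3. Within the AP group the same ratio was 2.49, 2.42 and 2.76.

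Foxn1, the forkhead factor lost in nude mice, drives keratinocytes from growth into differentiation and is needed for a normal hair shaft. It was counted with few reads, 28, 9, 40 and 3 in VC.1 to VC.4, against 49, 144, 180 and 120 in AP.1 to AP.4. As normalized counts these were 50.9, 13.3, 54.6 and 5.63 in the VC libraries against 35.5, 77.6, 89.7 and 85.8 in the AP libraries (ENSMUSG00000002057, chr11:78357577-78386558, minus strand). AP.2, AP.3 and AP.4 were above all VC libraries, AP.1 lay between the lower and the higher pair of VC libraries, and VC.4 with 3 reads was at the limit that no read would allow. Foxn1 averaged 31.1 ± 25.2 (SD, n = 4) for VC and 72.2 ± 24.9 for AP, a log2 fold change of 1.59 (SE 0.65, limma unadjusted p = 0.0312, adjusted p = 0.126). The two-sided exact permutation test gave p = 0.114. The log2 fold change was 0.997 without VC.4, 2.02 without VC.3 and 2.42 with scaling to total counts. With that scaling Foxn1 passed the threshold (limma adjusted p = 0.0101). The adjusted p lay between 0.0101 and 0.268 over the alternatives.

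Gata3 and Cux1 are factors of the inner root sheath: Gata3, a zinc finger protein, specifies sheath cells and is also a factor of T cells, and Cux1, a large homeodomain protein present in many cell types, is needed for normal sheath layers. Gata3 (ENSMUSG00000015619, chr2:9857078-9890034, minus strand) was read at 1135, 646, 929 and 311 normalized counts in the VC libraries against 454, 492, 805 and 752 in the AP libraries. All AP libraries lay inside the VC range. The log2 fold change was −0.16 (SE 0.36, limma adjusted p = 0.789), 0.085 without VC.1, −0.54 without VC.4 and 0.71 with scaling to total counts. Cux1 (ENSMUSG00000029705, chr5:136248135-136567490, minus strand) was read at 682, 700, 920 and 467 normalized counts in the VC libraries against 562, 1060, 1202 and 694 in the AP libraries. AP.2 and AP.3 were above all VC libraries, and AP.1 and AP.4 lay within the VC range. Its log2 fold change was 0.32 (SE 0.27, limma adjusted p = 0.445), and 0.14 to 0.51 when a library was left out. It was 1.19 with scaling to total counts (adjusted p = 0.0112) and −0.24 once the trend of each library with transcript length was removed. Cux1 had the smallest spread of the 7 members in the VC group, with 1.97 times the lowest library in the highest.

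Foxq1 is the forkhead factor mutated in satin mice, whose hair has a defective medulla. It was read at 72.8, 136, 54.6 and 35.6 normalized counts in VC.1 to VC.4, against 90.7, 111, 223 and 225 in AP.1 to AP.4 (ENSMUSG00000038415, chr13:31556134-31560976, plus strand). AP.3 and AP.4 were above all VC libraries, whereas VC.2 was above AP.1 and AP.2. Foxq1 averaged 74.7 ± 43.5 (SD, n = 4) for VC and 162 ± 71.9 for AP, a log2 fold change of 1.16 (SE 0.43, limma unadjusted p = 0.0188, adjusted p = 0.0950). The exact permutation test, two-sided, gave p = 0.0857. Leaving out VC.2 brought Foxq1 past the threshold (log2 fold change 1.51, limma adjusted p = 0.0424), as did scaling to total counts (2.02, adjusted p = 0.00394), and the adjusted p lay between 0.00394 and 0.247 over 22 alternatives. In these bulk samples, a different number of cells of a type and a different amount of RNA per cell cannot be told apart. This holds for Foxq1 as for the other members.

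**Figure D1:**
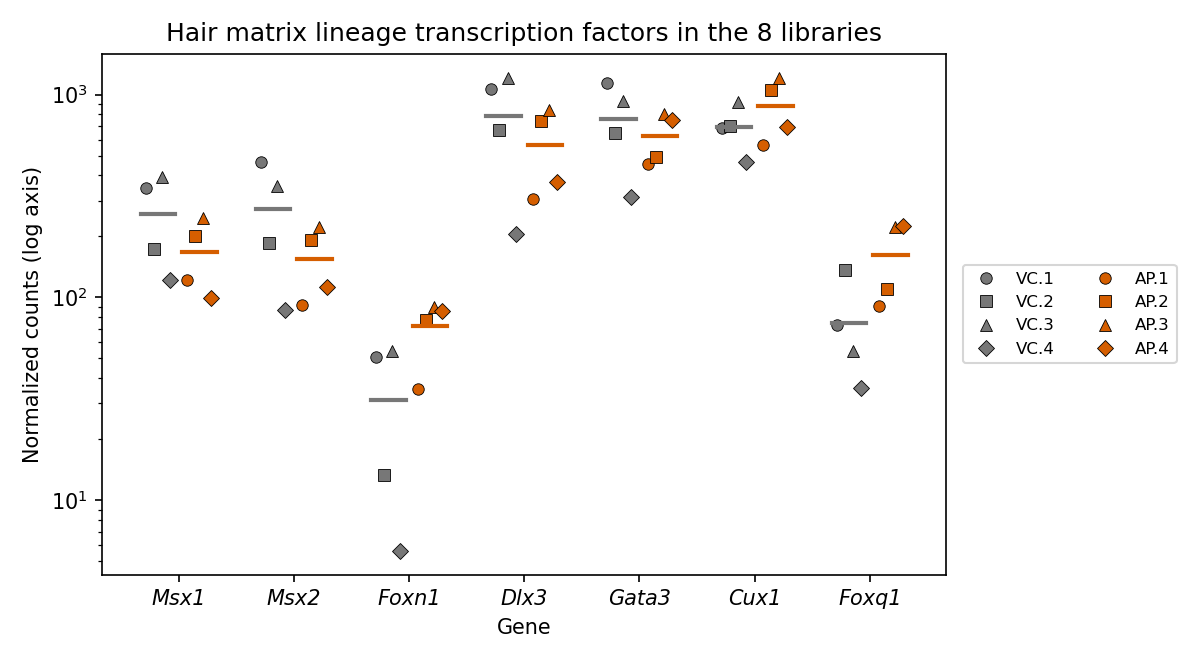
Normalized counts of the 7 members on a log axis, with 1 point per library (VC grey, AP orange) and a bar at each group mean (n = 4). The AP points of Foxn1 lie at 35.5 to 89.7 and its VC points at 5.63 to 54.6, and the AP and VC points of every member overlap.

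Over all 7 members the median log2 fold change was −0.16, beside 0.06 for all genes tested, with 3 members positive and 4 negative (7 positive with scaling to total counts). It was −0.54 without VC.4, 0.085 without VC.1 and 0.71 with scaling to total counts. The 4 factors of matrix and cortex (Msx1, Msx2, Dlx3 and Foxn1) had a median of −0.44, the sheath factors Gata3 and Cux1 a median of 0.08, and Foxq1 of the medulla had 1.16, and each of the 7 was above 0 with scaling to total counts.

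Per kilobase of merged exons, Dlx3 had the highest level of the 7 in the VC group, 302 ± 173 normalized counts per kb (SD, n = 4), followed by Gata3 with 190 ± 89.9. Msx2 (83.4 ± 51.9) and Msx1 (83.4 ± 42.2) followed with nearly the same levels, then Cux1 (34.6 ± 9.25), Foxq1 (15.4 ± 8.99) and Foxn1 (9.68 ± 7.86). In the AP group the order per kb was Dlx3 (217 ± 103), Gata3 (157 ± 44.9), Msx1 (54.0 ± 22.2), Msx2 (47.3 ± 19.1), Cux1 (43.9 ± 15.0), Foxq1 (33.5 ± 14.8) and Foxn1 (22.5 ± 7.76). Dlx3 and Gata3, Msx2 and Msx1, and Foxq1 and Foxn1 differed by less than the larger SD of each pair among VC libraries. All neighbours of the AP order but Gata3 and Msx1 differed by less than that. Dlx3 and Gata3 stood above Foxq1 and Foxn1 in both groups by more than their SD. With the longest transcript in place of merged exons, Msx1 (133 per kb) stood above Msx2 (111 per kb) in the VC group, and Cux1 (68.4 per kb) stood above Msx2 (63.3 per kb) in the AP group.

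The members mostly had their lowest values of a group in the same library, but their highest VC values were split over VC.3 (4 members), VC.1 (2) and VC.2 (1). VC.4 held the lowest normalized counts of the VC group for 7 of 7 members, beside 26.3% of all genes, and AP.1 the lowest of the AP group for 6 of 7 (all but Msx1, lowest in AP.4), beside 29.1%. AP.3 was the highest AP library for 6 of 7 members (all but Foxq1, highest in AP.4), beside 23.0% of all genes. Markers of other cells varied over the same libraries. Of 8 dermal fibroblast markers 0 were higher and 0 lower in the AP group, 1 was lower with DESeq2 and 1 without AP.1, and 7 were higher with scaling to total counts. With Col1a1 the most abundant (30.9% of their sum), the summed normalized counts were 121184, 81664, 83461 and 223583 in VC.1 to VC.4, against 255278, 190496, 136855 and 98401 in AP.1 to AP.4. VC.4 and AP.1, lowest for most members, were thus the highest of their groups for fibroblast markers, whose part in the member levels was not tested. None of 5 skeletal muscle markers passed the test (0 higher and 0 lower, most abundant Acta1), but without AP.1, where their sum was highest of the AP group, 5 of 5 were lower.

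Ratios between members within a library do not depend on the scaling of libraries beyond the pseudocount of 1. Foxn1 was set against each other member in this way after its levels had been seen, so these ratios are a description, with no test. As a percent of Msx1 reads, Foxn1 reads were 14.7, 7.69, 14.0 and 4.62 in VC.1 to VC.4, against 29.2, 38.6, 36.3 and 86.3 in AP.1 to AP.4. As a percent of Msx2 reads they were 10.9, 7.14, 15.4 and 6.52 in the VC libraries against 38.6, 40.3, 40.2 and 75.9 in the AP libraries. Every AP library was above every VC library in both ratios, and AP.4 was the highest. The log2 ratio of Foxn1 to Msx1 was 2.15 higher in the AP group (4.44-fold) and that to Msx2 2.23 higher (4.70-fold).

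Dlx3 and Gata3 gave ratios of the same kind. Foxn1 reads were 4.79, 1.98, 4.50 and 2.75% of Dlx3 reads in VC.1 to VC.4, against 11.6, 10.4, 10.6 and 23.2% in AP.1 to AP.4. As a percent of Gata3 reads they were 4.49, 2.06, 5.88 and 1.81 in the VC libraries against 7.83, 15.8, 11.1 and 11.4 in the AP libraries. All AP libraries were again above all VC libraries, by 1.92 on the log2 scale for Dlx3 (3.79-fold) and by 1.75 for Gata3 (3.37-fold). The groups overlapped for the ratio of Foxn1 to Cux1 (log2 difference 1.27) and to Foxq1 (0.43), and the latter difference turned to −0.14 without VC.2. Among the ratios of Foxn1 to each of the 15963 other genes tested, 7.91% did not overlap between the groups.

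**Figure D2:**
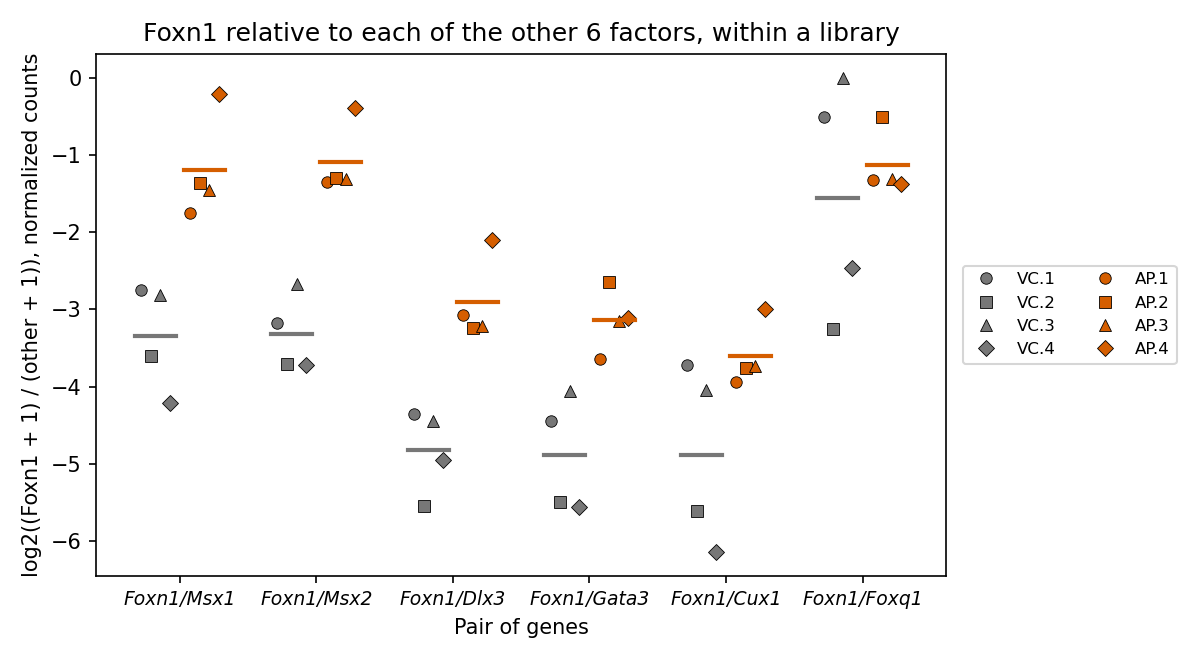
Log2 ratio of Foxn1 to each other member within a library, from normalized counts plus 1, with 1 point per library (VC grey, AP orange) and a bar at each group mean (n = 4). For Msx1, Msx2, Dlx3 and Gata3 all AP points lie above all VC points, with mean differences of 2.15, 2.23, 1.92 and 1.75, and for Cux1 and Foxq1 the points overlap.

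Over all 21 pairs of members, 6 did not overlap between the groups, beside 7.01% of the ratios of the 7 members to every other gene tested, and pairs that share a member are not independent. The same 6 pairs did not overlap with a pseudocount of 5, and 6 to 9 when a library was left out (beside 7.47 to 18.4% of the ratios to every other gene), a count that cannot fall with fewer libraries. The other pairs of the 6 were Msx1 and Msx2 against Cux1. Msx1 reads were 24.7 to 50.9% of Cux1 reads in the VC libraries against 14.3 to 21.7% in the AP libraries, a log2 difference of −0.88. For Msx2 the difference was −0.96, but as reads VC.4 (18.5%) lay just under AP.3 (18.6%), so that the absence of overlap for this pair rests on the pseudocount. The ratio of Msx1 to Msx2 did not differ beyond its spread (log2 difference 0.08, −0.070 to 0.24 when a library was left out).

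The genes with the nearest profiles over the 8 libraries were found by the root-mean-square (RMS) difference of mean-centred log2 normalized counts, among 11256 genes with a mean of at least 50, and nothing is said of shared function. Nearest to Msx1 were Bambi (RMS 0.229) and Lef1 (0.256), and Msx2 came next (0.283). Bambi, a decoy receptor for BMP and related ligands, was read at 180, 78.3, 201 and 69.4 normalized counts in the VC libraries against 46.4, 116, 96.7 and 57.9 in the AP libraries. Lef1, the nuclear effector of Wnt signals in matrix cells, was read at 326, 270, 445 and 180 in the VC libraries against 152, 190, 339 and 117 in the AP libraries, with VC.1 and VC.3 high as for Msx1. The log2 fold change of Lef1 was −0.65 (SE 0.34, limma adjusted p = 0.217) and that of Bambi −0.67 (SE 0.41, adjusted p = 0.297), and with scaling to total counts they were 0.21 and 0.19.

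Msx2 was nearest to Shh (RMS 0.241), the secreted signal of the matrix, and to the sheath keratin Krt28 (0.273), with Dlx3 next (0.275), and Dlx3 in turn was nearest to Msx2 (0.275) and Shh (0.283). Shh was read at 429, 225, 522 and 76.9 normalized counts in VC.1 to VC.4, against 112, 176, 221 and 115 in AP.1 to AP.4. As for Msx2, VC.1 and VC.3 were high and VC.4 was below all AP libraries. For Shh the log2 fold change was −0.73 (SE 0.50, limma adjusted p = 0.349), 0.13 with scaling to total counts, and −1.30 without VC.4, where it passed the threshold (adjusted p = 0.0433). When a library was left out, the log2 fold change of Shh lay between −1.30 and −0.38 (limma adjusted p up to 0.632). Krt28 had a log2 fold change of −0.81 (SE 0.40, limma adjusted p = 0.195), which was 0.058 with scaling to total counts and −1.26 without VC.4 (adjusted p = 0.0280).

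Foxn1 lay farther from its nearest profiles, those of Galnt3 (RMS 0.421), an enzyme that starts O-linked glycosylation, and Pdzk1ip1 (0.494). Galnt3 was read at 38.2, 29.6, 47.8 and 5.63 normalized counts in the VC libraries against 43.5, 74.9, 92.7 and 83.0 in the AP libraries, with AP.1 lowest of its group as for Foxn1. Gata3 was nearest to Dcbld1 (RMS 0.166) and Mad2l1 (0.174), a checkpoint protein of mitosis. Cux1 was nearest to Ankrd50 (0.129) and Unc5b (0.146). Foxq1 was nearest to Bicdl2 (0.129) and Mal2 (0.181). Mal2 had a log2 fold change of 1.26 (SE 0.42, limma adjusted p = 0.070) and passed the threshold without VC.2 (adjusted p = 0.0356), as Foxq1 did, without AP.1 (0.0468), with DESeq2 (0.0345) and with scaling to total counts (log2 fold change 2.13, adjusted p = 0.0023).

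Genes of basal keratinocytes served as an epithelial reference within each library. Of 9 basal markers, 5 were higher in the AP group and 0 lower (median log2 fold change 1.11), and 9 were higher with scaling to total counts. The number higher was 3 without any 1 of VC.1, VC.4, AP.3 and AP.4. It was also 3 without the intensity trend or with the length trend removed. The 4 with the smallest p were Dsc3 (log2 fold change 2.18, SE 0.36, limma adjusted p = 0.00896), Itga6 (1.92, SE 0.31, 0.00896), Dst (1.56, SE 0.26, 0.00896; 0.96 with the length trend removed) and Col17a1 (1.73, SE 0.42, 0.0298). Col17a1 lost the call without VC.1, VC.4, AP.3 or AP.4 (adjusted p 0.0544 to 0.0917), without the intensity trend (0.0809) and with the length trend removed (0.0571). Krt14 made up 42.4% of the sum of the 9 but did not pass the test (adjusted p = 0.212). Together they had 26011, 81487, 49799 and 23483 normalized counts in VC.1 to VC.4, against 55224, 57606, 104376 and 148592 in AP.1 to AP.4. The mean log2 level of the 9 was 10.5 for VC and 11.8 for AP (exact p = 0.0286), whereas their sum overlapped between the groups (exact p = 0.114). These levels were found although interfollicular keratinocytes had been removed before RNA was taken.

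Relative to this mean, 2 of 7 members (Msx2 and Gata3) were lower in every AP library than in every VC library, beside 38.3% of all genes, so the members' share was not above that of all genes. The log2 level of Gata3 relative to the basal mean stood at 0.024, −1.86, −1.04 and −1.46 in VC.1 to VC.4, against −2.57, −2.42, −2.56 and −2.83 in AP.1 to AP.4, a difference of −1.51 (exact p = 0.0286). For Msx2 it was −1.25, −3.65, −2.43 and −3.30 in the VC libraries against −4.86, −3.77, −4.41 and −5.56 in the AP libraries, a difference of −1.99 (exact p = 0.0286). The AP libraries of Gata3 lay close together, and of those of Msx2 only AP.2 came near VC.2. Msx1 (−1.91), Dlx3 (−1.68) and Cux1 (−1.03) overlapped, each with an exact p of 0.0571. Foxn1 differed by 0.24 (exact p = 0.771), −0.22 without VC.2 and −0.11 without VC.4, and Foxq1 by −0.19 (exact p = 0.543). With Krt5 and Krt14 alone as the reference 0 of 7 were lower without overlap and Foxq1 turned to 0.18, and the count was 4 without VC.2 (beside 55.8% of all genes) and 5 without AP.2 (beside 48.1%). Such a count cannot fall with fewer libraries. The difference of Gata3 lay between −1.77 and −1.14 when a library was left out, and that of Msx2 between −2.32 and −1.52. Over the 35 assignments then possible the exact p was 0.0571 without any 1 of the AP libraries for Gata3, and without VC.1, VC.3 or any 1 of the AP libraries for Msx2, and the groups still did not overlap.

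Some members share their locus with other genes, and since the strand used in counting is not given, reads of a gene and of its antisense partner cannot be told apart. Gm13256, an antisense transcript at chr2:9877256-9878869 on the plus strand, overlaps 155 nt of Gata3 exons. It was read at 9.10, 41.4, 16.4 and 5.63 normalized counts in VC.1 to VC.4, against 59.5, 85.7, 112 and 119 in AP.1 to AP.4. All AP libraries were above all VC libraries, and the log2 fold change was 2.63 (SE 0.53, limma adjusted p = 0.0172), with an adjusted p of 0.0639 without AP.3 and 0.0567 without AP.4 (0.000214 to 0.0639 over 22 alternatives). The sense gene Gata3 did not follow it, with 4 AP libraries inside the VC range. Inside the Gata3 locus but outside its exons, 4930412O13Rik was read at 0, 1.48, 1.37 and 3.75 normalized counts in the VC libraries, at or under 2 reads each, and at 8.70, 10.2, 13.5 and 13.6 in the AP libraries. It passed the threshold (limma adjusted p = 0.0427), with a fitted log2 fold change of 2.42 (SE 0.67) that depends on the pseudocount, but lost the call without any 1 library other than VC.4 (adjusted p 0.0555 to 0.142), with a pseudocount of 0.5 (0.0546), with limma-voom (0.0578) and at equal depth without mitochondrial genes (0.0583). On the same strand as Gata3, 9230102O04Rik overlaps 77 nt of its exons and had 0 to 10.3 normalized counts per library (limma adjusted p = 0.950).

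Foxq1 shares the most sequence with a neighbour: A530084C06Rik, annotated on the opposite strand at chr13:31556134-31559333, covers 3200 nt or 66.1% of the Foxq1 exons. A530084C06Rik was read at 1.82, 44.3, 34.1 and 7.50 normalized counts in the VC libraries against 50.8, 43.7, 111 and 137 in the AP libraries. As for Foxq1, AP.3 and AP.4 were highest and VC.2 was the highest VC library, so the level of Foxq1 is uncertain to the extent that reads of either strand were counted for it. The log2 fold change of A530084C06Rik was 2.47 (SE 0.80, limma adjusted p = 0.0666), and 1.70 to 3.03 when a library was left out (adjusted p up to 0.171). It passed the threshold without VC.2 (adjusted p = 0.0396), with scaling to total counts (0.00708) and with DESeq2 (0.0302). Gm16599, antisense to Cux1, overlaps 394 nt of its exons and was read at 0, 2.96, 20.48 and 0 normalized counts in the VC libraries against 4.35, 32.9, 38.9 and 12.9 in the AP libraries (log2 fold change 2.55, SE 1.04, limma adjusted p = 0.124), with the highest levels of each group in VC.3 and AP.3, as for Cux1. It passed the threshold without VC.3 (adjusted p = 0.0399) and with scaling to total counts (0.0237).

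Among relatives of the members in the Msx, Dlx, Gata, Cux and Foxn families, 9 of 15 listed genes were tested, 2 were higher and 0 lower (median log2 fold change 0.55), and 4 were higher with scaling to total counts. Foxn2 was read at 122, 94.6, 132 and 88.1 normalized counts in VC.1 to VC.4, against 168, 184, 202 and 225 in AP.1 to AP.4, without overlap (log2 fold change 0.84, SE 0.21, limma adjusted p = 0.0315). Foxn3 had 280, 337, 369 and 249 in the VC libraries against 463, 457, 694 and 481 in the AP libraries (0.75, SE 0.19, adjusted p = 0.0333). Unlike Foxn1, these broadly expressed relatives had no AP library among the VC libraries. Foxn2 lost the call without VC.2, VC.4, AP.2, AP.3 or AP.4 (adjusted p 0.0552 to 0.103) and Foxn3 without VC.1, VC.4, AP.2, AP.3 or AP.4 (0.0631 to 0.107), and both lost it without the intensity trend (0.0545 and 0.080). Once the length trend was removed the log2 fold changes were 0.60 for Foxn2 (adjusted p = 0.0952) and 0.34 for Foxn3 (0.214).

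Of 12 other factors of the matrix lineages, such as Hoxc13, Lef1 and Runx1, 1 was higher and 0 lower, with a median log2 fold change of 0.03 (−0.16 to 0.89 over 22 alternatives). In this list 5 genes were higher with scaling to total counts, and 1 was lower with DESeq2, with the length trend removed and without VC.3. The 1 called higher was Egr2, an early-response zinc finger factor, with 100 to 188 normalized counts in the VC libraries against 193 to 297 in the AP libraries (log2 fold change 0.99, SE 0.23, limma adjusted p = 0.0267), which lost the call without VC.1, AP.2 or AP.3 (adjusted p 0.0576 to 0.0931) and without the intensity trend (0.0605). Of 16 genes of BMP input, the signal that drives Msx genes in the matrix, 1 was higher and 0 lower (median 0.04, −0.06 to 0.90 over the alternatives). In this list 1 gene was lower with edgeR, limma-voom or upper-quartile scaling and without VC.4, 2 were lower with DESeq2, and 10 were higher with scaling to total counts. Bmpr2, a BMP receptor, had 223 to 456 normalized counts in the VC libraries against 567 to 865 in the AP libraries (log2 fold change 0.93, SE 0.23, limma adjusted p = 0.0315), and lost the call without VC.1, AP.2, AP.3 or AP.4 (adjusted p 0.0531 to 0.0925), without the intensity trend (0.0816) and with the length trend removed (log2 fold change 0.37, adjusted p = 0.214). Of 11 genes of Wnt and Shh input, with the ectodysplasin receptors Edar and Eda2r among them, 0 were higher and 0 lower with limma, and 4 were higher with scaling to total counts (median 0.05, −0.30 to 0.92 over the alternatives), and without VC.4 Shh was lower.

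Structural genes of the layers in which the members act were read in the same libraries. Of 10 tested inner root sheath genes, 3 were higher and 0 lower (median log2 fold change 1.56), 2 were higher without AP.2, AP.3 or AP.4 and with limma-voom, 4 with edgeR, 5 with DESeq2 or without AP.1 and 8 with scaling to total counts, and Krt28 was lower without VC.4. Their sum was 6132, 4948, 6202 and 1588 normalized counts in VC.1 to VC.4, against 4010, 17662, 19059 and 6452 in AP.1 to AP.4, with Krt71 the most abundant (25.9%). VC.4 and AP.1 were the lowest of their groups, as for Gata3 and Cux1. Tchh, which encodes trichohyalin of the sheath and medulla, was read at 366, 265, 247 and 99.4 normalized counts in the VC libraries against 709, 4478, 4193 and 1223 in the AP libraries (log2 fold change 3.18, SE 0.57, limma adjusted p = 0.0113). The crosslinking enzyme Tgm3 (2.75, SE 0.45, adjusted p = 0.00896) and the sheath keratin Krt72 (4.06, SE 0.86, adjusted p = 0.0188) were the others, and Krt72, at 0 to 5.91 normalized counts in the VC libraries, lost the call without AP.2, AP.3 or AP.4 (adjusted p 0.0539 to 0.0633) and with limma-voom (0.0983). The fold change of Krt72 depends on the pseudocount and was 2.66 on the log2 scale with a pseudocount of 5. Gata3 and Cux1, factors of this layer, did not pass the test, and the difference between them and the sheath genes was not tested.

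Of 10 tested hair shaft genes, 9 of them hair shaft keratins and the other the desmosomal cadherin Dsg4, 0 were higher and 0 lower with limma (median log2 fold change 1.92), 1 was higher without AP.1, and 1 was higher with edgeR, 4 with DESeq2 and 8 with scaling to total counts. Krt35, an early keratin of the matrix and cuticle, made up 75.0% of the summed level of all 14 listed genes found in the table. Its log2 fold change was −0.60 (SE 0.38, limma adjusted p = 0.303), −0.97 to −0.38 when a library was left out and 0.27 with scaling to total counts. The sum of these 14, of which 4 were too low to be tested, was 1504, 1141, 1075 and 420 normalized counts in the VC libraries against 479, 1601, 1353 and 617 in the AP libraries. VC.4 and AP.1 were again the lowest of their groups, as for Dlx3 and Foxn1.

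Markers of cells outside the matrix moved with the comparison, and their part in the member levels was not tested. Of 13 suprabasal keratinocyte markers, 11 were higher in the AP group and 0 lower (median log2 fold change 3.0, 9 to 12 higher when a library was left out, 9 with limma-voom or without the intensity trend, 13 with DESeq2 or scaling to total counts), and Krt10 was the most abundant (36.7%). The 4 with the smallest p were Krt10 (log2 fold change 3.85, SE 0.50, limma adjusted p = 0.00367), Krt77 (3.95, SE 0.53, 0.00435), Krtdap (2.91, SE 0.45, 0.00843) and Krt1 (3.46, SE 0.54, 0.00843). The 13 markers summed to 6962, 14711, 9962 and 6849 normalized counts in VC.1 to VC.4, against 47622, 44657, 131385 and 183220 in AP.1 to AP.4. AP.3 and AP.4, highest for these markers, were also the highest libraries for Foxq1 and Foxn1, and the highest of the AP group for Gata3. For Msx1, Msx2, Dlx3 and Cux1 the highest AP libraries were AP.2 and AP.3. Of 9 T cell markers, from cells that also express Gata3, 1 was higher and 0 lower (median 1.53), with sums of 162, 142, 193 and 111 in the VC libraries against 243, 256, 262 and 416 in the AP libraries and Cd247 the most abundant (21.7%). The 1 was Trdc (log2 fold change 1.86, SE 0.52, limma adjusted p = 0.0440), which lost the call without any 1 library other than VC.3 (adjusted p up to 0.136), with limma-voom (0.0770), without the intensity trend (0.0607), with no filter (0.0559), at equal depth without mitochondrial genes (0.0598) and with the length trend removed (0.0614). The count was 2 without VC.3, 2 with DESeq2 and 7 with scaling to total counts.

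Among 8 dermal papilla markers, cells that signal to the matrix, 4 were lower and 0 higher (median log2 fold change −1.08, −0.21 with scaling to total counts). Lower markers numbered 5 with DESeq2, 3 with the length trend removed and without VC.2 or VC.4, and 2 without AP.2 or AP.3. They numbered 1 with scaling to total counts or without the intensity trend, and 0 without AP.4. Sox2, Rspo3, Crabp1 and Wif1 were the 4, and Crabp1 was the most abundant (29.7%). Their sum was 2059, 2338, 2847 and 3705 normalized counts in the VC libraries against 987, 1041, 1444 and 941 in the AP libraries, with VC.4 highest through Crabp1 alone (2254 normalized counts there against 471 to 602 in the other VC libraries). The other 7 markers summed to 1588, 1803, 2245 and 1451 in the VC libraries, with VC.4 lowest as for the members, against 818, 772, 1314 and 801 in the AP libraries. Of 7 melanocyte markers, pigment cells of the matrix, 4 (Tyr, Pmel, Mlana and Mitf) were lower and 0 higher (median −0.83, 0.037 with scaling to total counts, where Mitf turned to 0.15). The count was 5 without VC.4 or with DESeq2, 1 without the intensity trend or with scaling to total counts (where 1 other marker was higher), also without mitochondrial genes (0 higher), and 1 without any 1 of the other libraries, where Mlana passed the threshold in each case (log2 fold change −2.03, SE 0.24, limma adjusted p = 0.00237 with all libraries). Melanocyte markers summed to 4473, 3458, 3994 and 1603 normalized counts in the VC libraries against 1441, 1667, 2162 and 1247 in the AP libraries, with VC.4 the lowest VC library as for Msx1, Msx2 and Dlx3 and Dct the most abundant (36.7%).

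Of 9 leukocyte markers 1 (the mast cell protease Mcpt4) was lower and 0 higher (median log2 fold change −0.86, 0.0043 with scaling to total counts), 0 were lower without VC.1, VC.4, AP.3 or AP.4, without the intensity trend or with the length trend removed, 2 were lower without VC.2 or VC.3 and 3 with DESeq2. With scaling to total counts 2 were higher and 0 lower. Of 10 proliferation genes 0 were higher and 0 lower with limma (median 0.18, 0.0041 without VC.4 and 0.27 without VC.1). In this list 1 gene was higher without VC.2 or with DESeq2, and 1 was lower without VC.4 or with edgeR or DESeq2. With scaling to total counts 6 were higher (median 1.05). Of 5 adipocyte markers 0 were higher and 0 lower, and 2 were higher with scaling to total counts (median 0.23, −0.27 to 1.09 over the alternatives).

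Promoter sequences from RefSeq (GRCm38.p6) were found for 5 of the 7 members, Msx1, Msx2, Foxn1, Gata3 and Cux1, and not for Dlx3 and Foxq1. The 250 bases before each annotated start were searched on both strands for 6 short motifs, and 0 matches overlapped another. The homeodomain core TAATTG occurred in 0 of 5 members, beside 7.17% of all 32851 promoter windows of the same length. For the Gata core GATAA the count was 0 of 5, beside 22.6% of all windows. The forkhead core TGTTTA was found in 1 of 5 (Cux1), beside 12.0%. The box CCAAT, which gave Cux1 an older name, was found in 3 of 5 (Msx1, Msx2 and Foxn1), beside 33.8%. The Lef and Tcf core CTTTGA was found in 0 of 5, beside 13.8%. The GC box GGGCGG was found in 4 of 5 (all but Cux1), beside 32.7%. A match describes letters and not a bound site. The windows of Msx1, Foxn1 and Gata3 are shown as those of Foxn1 and of a pair of members against which its reads were set above, with matches in capitals. They lie at chr5:37824586-37824835, chr11:78386609-78386858 and chr2:9878601-9878850, all on the minus strand and outside the exons annotated for the gene itself. The windows of Msx1 and Foxn1 lie outside the annotated gene, whereas that of Gata3 lies inside it (chr2:9857078-9890034).
Msx1: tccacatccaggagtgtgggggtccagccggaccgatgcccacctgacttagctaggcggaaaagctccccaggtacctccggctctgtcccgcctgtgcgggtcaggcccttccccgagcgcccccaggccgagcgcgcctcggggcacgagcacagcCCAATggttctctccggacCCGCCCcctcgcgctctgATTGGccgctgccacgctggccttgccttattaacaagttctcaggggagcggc
Foxn1: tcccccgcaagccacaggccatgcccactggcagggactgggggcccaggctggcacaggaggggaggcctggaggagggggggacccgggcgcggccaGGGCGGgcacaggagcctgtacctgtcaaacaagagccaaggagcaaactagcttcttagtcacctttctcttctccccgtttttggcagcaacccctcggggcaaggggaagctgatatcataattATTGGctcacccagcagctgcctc
Gata3: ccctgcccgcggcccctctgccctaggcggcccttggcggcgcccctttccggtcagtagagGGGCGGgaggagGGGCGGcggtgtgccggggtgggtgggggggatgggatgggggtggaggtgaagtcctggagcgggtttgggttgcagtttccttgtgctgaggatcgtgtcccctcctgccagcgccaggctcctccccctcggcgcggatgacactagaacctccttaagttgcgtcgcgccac
Msx1 had CCAAT beginning 91 and 54 bases before the start, with GGGCGG between them at 72. Foxn1 had GGGCGG at 151 and CCAAT at 24 bases before its start, and Gata3 had GGGCGG at 188 and 176. The Gata3 window lies with all 250 bases inside Gm13256, the antisense gene that was higher in the AP group. Msx2 had GGGCGG at 160 and CCAAT at 124 bases before the start and Cux1 had TGTTTA at 158, in windows that lie within annotated exons of these genes.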

How the data were processed

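Libraries of poly(A)-enriched RNA (4 VC, 4 AP) were sequenced. In the authors' pipeline, cleaned reads were aligned to mm10 by STAR, counted per gene (featureCounts in the methods, HTSeq in the processing notes, versions and strand not given) and normalized with DESeq2. The deposited values are a normalized signal, read counts divided by 1 size factor per library: 150160 of 150160 values were whole reads within 0.01 read after the factor was recovered. The authors' DESeq2 comparison columns (mean, log2 fold change, p) stand beside them and were not used. Here log2(value + 1) was fitted with limma 3.58.1 (intensity trend, R 4.3.3), Benjamini-Hochberg over 15964 genes, on scripts tested on simulated data. Alternatives were edgeR 4.0.16, DESeq2 1.42.0 and limma-voom on recovered reads, other scalings, pseudocounts, filters, equal depth, removal of a length trend and each library left out. Exons came from GENCODE M21 (18766 of 18770 identifiers matched). Single values were tested by two-sided exact permutation. The members and lists were chosen with earlier results of these data known. Genes named were taken from the members, the genes of each list that passed the test (up to 4), its most abundant gene, genes overlapping a member, and the 2 nearest profiles per member. Others, such as Hoxc13, Runx1, Edar, Eda2r, Dsg4 and Krt5, were named only to describe a list or a reference. The ratios of members were added after the data were seen. Replicates of a group differed by 15.8 to 78.9 times counting noise (chi-square per degree of freedom).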

Additional observations from a re-analysis of the deposited data

Results flagged for a closer look

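In groups of 4 libraries, the gap from the most extreme library to its nearest neighbour was divided by the range of the group. Of 74 groups looked at, 4 had a gap beyond the 95% critical value, and chance flags about 1 in 20 groups. The log2 level of Foxn1 in the AP group had a gap of 0.843, with AP.1 low. The log2 ratio of Foxn1 to Msx2 in the AP group had a gap of 0.947, with AP.4 high, and that of Foxn1 to Dlx3 a gap of 0.845, also with AP.4 high. The log2 ratio of Foxn1 to Foxq1 in the AP group had a gap of 0.913, with AP.2 high. All 4 values involve Foxn1 and are not independent.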

How the results depend on the processing

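Of all genes, 1011 were higher and 639 lower (61.3% of calls higher). DESeq2 (17622 genes tested) gave 1667 and 1394, limma without the intensity trend 376 and 216, total counts 8657 and 70 (99.2% higher), upper-quartile scaling 52.2% and limma-voom 49.7% of calls higher, and removal of the length trend 580 higher (52.2%). Total counts without mitochondrial genes gave 957 higher (63.9% of calls higher). Leaving out a library gave 209 to 1082 higher and 94 to 817 lower. With total counts 3 members were called higher and their median was 0.71, and without a library 0 to 1 were called. The count of members lower relative to basal genes was 0 with Krt5 and Krt14 alone (Foxq1 turned to 0.18) and 2 to 5 without a library. Directions turned with total counts for Msx1 (0.31), Msx2 (0.23), Dlx3 (0.54), Gata3 (0.71), Krt35 (0.27), Mitf (0.15), Bambi (0.19), Lef1 (0.21), Shh (0.13), Krt28 (0.058), Dcbld1 (0.70) and Mad2l1 (0.84, and 0.012 without mitochondrial genes), and with the length trend removed for Cux1 (−0.24), Ankrd50 (−0.12) and Unc5b (−0.080). 9230102O04Rik turned to −0.15 with edgeR, −0.15 with DESeq2, −0.057 with voom and −0.021 with a pseudocount of 5. Without a library, ranges that crossed 0 included −0.64 to 0.63 for 9230102O04Rik, −0.54 to 0.085 for Gata3, −0.45 to 0.0051 for Dcbld1, −0.33 to 0.23 for Mad2l1, −0.22 to 0.76 for Foxn1 relative to basal genes, −0.14 to 0.95 for the ratio of Foxn1 to Foxq1 and −0.070 to 0.24 for that of Msx1 to Msx2. The cause was not tested. No other alternative called a member. No paired analysis was possible because the groups share no replicate numbers in the labels.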
